A study of Rattus norvegicus with 6 samples.

Results

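Chemokines, interleukins, tumour necrosis factor (TNF) ligands and their receptors were examined in right ventricular (RV) tissue of SuHx rats and control rats. Members were taken by gene name. They are the names that start with Ccl, Ccr, Cxcl or Cxcr and a digit, with Cx3c, Xcl or Xcr, with Il and a digit, with Tnf or with Ifn, together with Lif, Lifr, Osm and Osmr. This gave 120 of the 12958 named genes in the table of normalised counts. By role they were 44 ligands, 62 receptors and 14 others, which are soluble decoys, antagonists and proteins named for their induction by TNF. Tnf itself and the type I interferons are not analysed here. A mean of at least 10 normalised counts over the 6 libraries was reached by 73 of the 120, namely 26 ligands, 37 receptors and 10 others, and these were tested. The lowest tested mean was 10.4, of Tnfaip8l3, and the highest untested mean was 9.46, of Ccl3. The other 47 are described by their values at the end.

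Cytokines are small secreted or membrane-bound proteins by which immune cells, endothelium, fibroblasts and cardiomyocytes signal to each other. Chemokines guide leukocytes through G protein-coupled receptors, interleukins and the gp130 cytokines signal mainly through JAK kinases and STAT factors, the IL-1 family signals through MyD88 and NF-kB, and trimeric TNF superfamily ligands bind receptors that often recruit TRAF adaptors. Decoy receptors and antagonists bind a ligand or a receptor without passing the signal on. In the pressure-loaded heart these systems are known for recruiting macrophages and for acting on fibroblasts and muscle cells.

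The SuHx group held 3 libraries of male Sprague-Dawley rats that had received SU5416, a drug that blocks the receptor of vascular endothelial growth factor, with exposure to normobaric hypoxia followed by normoxia. Their tissue was taken at 8 weeks and is labelled decompensated RV. The control group held 3 libraries of healthy male Sprague-Dawley rats taken at day 0, with no treatment given in the labels,, called controls 1, 2 and 3. The SuHx libraries are lettered A, B and C since no label ties a column to a numbered rat. Values of single libraries follow the order A, B, C for SuHx and 1, 2, 3 for control. With no control at 8 weeks, the effect of age and that of the SuHx treatment cannot be told apart in any difference given here. The design text counts 3 tissues in each group, and no label says further that every library is of a separate rat, so the p-values may reflect only how far these libraries differ. The authors normalised the counts with DESeq2, and they summed to 12754742 to 18249590 in the SuHx libraries and 11608206 to 12393666 in the control libraries. Summed cardiomyocyte markers were at 543113 to 674013 normalised counts in SuHx and 606045 to 739697 in control, and Ttn, 1 of the 6, was not used here. Of the 5 atrial markers, Nppa, which ventricular muscle under load is also known to express, was at 15462, 15802 and 17508 in SuHx, against 36639 in control 1, 57.3 in control 2 and 43.1 in control 3. The other 4 were high in control 1 and low elsewhere. Myl4 was at 41.0 to 58.1 in SuHx, against 9629 in control 1, 15.6 in control 2 and 40.2 in control 3, and Myl7, Bmp10 and Sln were at 0 to 7.17 in SuHx, against 560 to 2363 in control 1 and 0 to 1.02 in controls 2 and 3. In bulk tissue, fewer cells of a type and less RNA per cell cannot be told apart.

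The promoters of the members with the lowest p were searched, and 3 of them, chosen by hand, are shown. Tnfrsf12a was the member called with all 6 libraries. Il4r was called as well once control 3 was left out, as was Cxcr4, which is not shown. Cxcl12 was the ligand with the lowest p. The sequences are from RefSeq on the rat build GRCr8, which is not the build named for the files, and run 5′ to 3′ from 250 bases before to 50 bases after the annotated start of the gene. Capitals mark matches to the motifs searched on both strands, which were AP-1 (TGANTCA), STAT (TTCNNNGAA), the hypoxia response core HRE (ACGTG) and the ISRE and NF-kB motifs.
Tnfrsf12a, chr10:13213599-13213898, minus strand: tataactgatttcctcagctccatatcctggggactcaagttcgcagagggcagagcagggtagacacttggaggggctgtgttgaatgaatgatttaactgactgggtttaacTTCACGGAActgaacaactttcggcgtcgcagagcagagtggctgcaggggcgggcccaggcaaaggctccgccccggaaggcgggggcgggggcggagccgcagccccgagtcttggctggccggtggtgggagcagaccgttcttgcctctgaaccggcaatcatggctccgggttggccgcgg
Il4r, chr1:189545525-189545824, plus strand: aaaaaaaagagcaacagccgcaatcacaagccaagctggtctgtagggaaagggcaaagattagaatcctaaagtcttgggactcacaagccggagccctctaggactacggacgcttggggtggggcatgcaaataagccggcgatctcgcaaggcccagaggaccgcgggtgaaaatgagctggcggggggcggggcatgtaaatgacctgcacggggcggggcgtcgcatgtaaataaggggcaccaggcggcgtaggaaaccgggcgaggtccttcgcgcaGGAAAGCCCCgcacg
Cxcl12, chr4:152060531-152060830, plus strand: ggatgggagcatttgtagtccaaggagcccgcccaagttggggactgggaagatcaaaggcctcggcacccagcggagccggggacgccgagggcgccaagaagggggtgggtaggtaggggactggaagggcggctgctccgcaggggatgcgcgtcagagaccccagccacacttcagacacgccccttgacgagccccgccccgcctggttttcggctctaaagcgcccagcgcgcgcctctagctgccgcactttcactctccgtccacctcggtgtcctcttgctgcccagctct
The window of Tnfrsf12a held a STAT match whose first base lies at -136 from the start. That of Il4r held an NF-kB match on the other strand at +36, and that of Cxcl12 held none of these letter patterns. Of the windows searched but not shown, Il1r1 held an NF-kB match on the other strand at -135. Tnfaip2 held HRE matches at -185 and -184, which are a single stretch, CACGTG, read on both strands. Of the 120 members, 94 had a promoter in the RefSeq table. Among these 94, NF-kB was found in 21.3%, AP-1 in 19.1%, STAT in 11.7%, ISRE in 8.51% and HRE in 16.0%. Among all 27457 promoters of the same length the shares were 7.60%, 7.33%, 8.68%, 3.77% and 19.7% in the same order. A match describes letters and is not evidence of binding.

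Across the cytokine system of the SuHx RV, 1 gene rose and 0 fell at an adjusted p under 0.05 from limma, with 72 of the 73 tested genes not passing. Over all 10725 genes tested, 1.55% were higher and 0.671% were lower, 2.22% in all, against 1.37% of the members. At an unadjusted p under 0.05, 13 members were higher and 7 were lower, which is 27.4% of the members, where the shares over all genes were 9.61% higher, 7.59% lower and 17.2% in all. All 3 SuHx libraries lay above all 3 controls for 13 members and below them for 8, 28.8% of the members, where the shares over all genes were 12.9% above, 11.6% below and 24.6% in all. The exact permutation test (two-sided) of such a gene gives p = 0.1, its lowest possible value with 3 libraries a group. The median log2 fold change of the members was 0.06, against 0.01 over all genes, within a range of -1.77 to 2.06 and with a median standard error of 0.39. The median of the members was -0.11 without control 2 and 0.17 without control 3. Fold changes are of log2(normalised count + 1), a scale that shrinks the change of weakly measured genes.

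Ligands and receptors were then counted separately. Of the 26 ligands, 0 passed the adjusted threshold of limma in either direction, an unadjusted p under 0.05 was reached by 1 higher and 3 lower, and the median log2 fold change was -0.20, with 11 positive and 15 negative. That median depended on single libraries, at -0.71 without SuHx C, 0.01 without SuHx A, -0.02 without control 1 and -0.04 without control 3, and it was -0.45 at the same total and 0.25 without controls 1 and 3 together. Of the 37 receptors, 1 passed, an unadjusted p under 0.05 was reached by 8 higher and 4 lower, and the median was 0.11, with 20 positive and 17 negative, a sign that flipped to -0.21 when all libraries were brought to the same total. Of the 10 others, 0 passed, an unadjusted p under 0.05 was reached by 4 higher and 0 lower, and the median was 0.54, with 8 positive and 2 negative. The 4 tested TNF ligands had a median of -0.50 and all were negative with all 6 libraries. Of these, Tnfsf12 was at 0.01 without control 3. Tnfsf13b, at -1.22 with a listed 0 in SuHx A, reached 0.06 with a single library left out. Tnfsf8, Tnfsf9 and Tnfsf18 fell under the filter, and Tnfsf18 was above all controls in every SuHx library. The 8 TNF receptors had a median of 0.25, which flipped to -0.07 at the same total. The 8 others with TNF in their names had one of 0.54, which became 0.23. These are descriptions of the lists, and the difference between ligands and receptors was not tested.

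**Figure D1:**
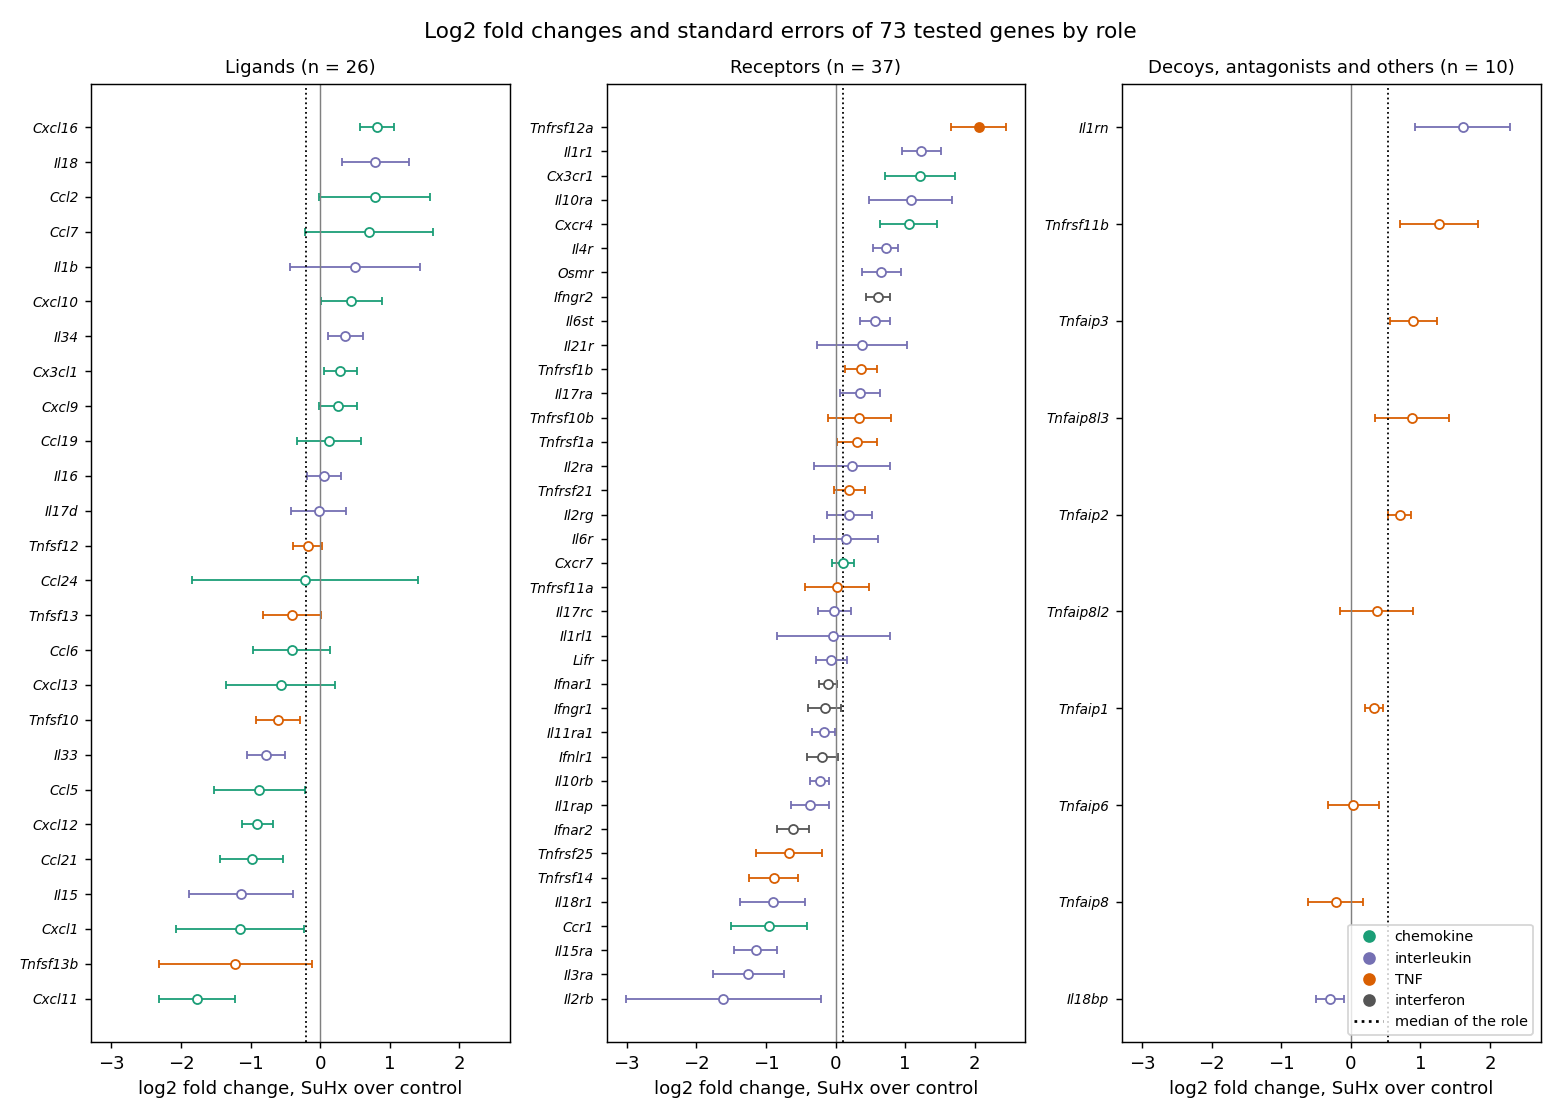
Log2 fold change of SuHx over control (horizontal axis) for the 26 ligands, 37 receptors and 10 other genes tested, with bars of 1 standard error from limma, filled where the adjusted p was under 0.05 and a dotted line at each median. Tnfrsf12a at 2.06 is the filled point, and the medians lie at -0.20 for ligands, 0.11 for receptors (-0.21 once scaled to a common total) and 0.54 for others.

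Tnfrsf12a encodes Fn14, a receptor for the cytokine TWEAK that is known to be induced in injured and growing tissue. It had 476, 374 and 291 normalised counts in the SuHx libraries, against 47.9, 103 and 141 in the control libraries. All SuHx libraries were above all controls, and the lowest SuHx library was SuHx C and the highest control was control 3. The mean was 380.4 ± 92.7 over the SuHx libraries and 97.4 ± 46.9 over the controls (SD, n = 3 each), which is a log2 fold change of 2.06 ± 0.39 (SE, limma adjusted p = 0.0475). Leaving out 1 library at a time kept the log2 fold change between 1.62 and 2.39. The adjusted p from limma was 0.047 without control 1 and 0.021 without control 3, but 0.097 without control 2, 0.166 without SuHx A, 0.146 without SuHx B and 0.144 without SuHx C. The call changed with the library left out. The direction could not change, since the groups did not overlap.

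Tnfsf12 encodes TWEAK, the partner of Fn14. It had 312, 287 and 368 normalised counts in the SuHx libraries, against 326, 310.4 and 475 in the control libraries, and the groups overlapped, with control 3 highest. Its log2 fold change was -0.18 ± 0.20 (SE, limma adjusted p = 0.692). Tnfsf10, which encodes the death ligand TRAIL, had 177, 163 and 277 normalised counts in the SuHx libraries, against 313, 206 and 434 in the control libraries, with a log2 fold change of -0.60 (limma adjusted p = 0.378). Control 3 was again the highest library. Tnfsf13, which encodes the B cell factor APRIL, lay between 22.5 and 72.5 normalised counts in the SuHx libraries, against 46.8 to 50.4 in the control libraries, so that SuHx covered the controls. The log2 fold change of Tnfsf13 was -0.41.

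Among the other TNF receptors, Tnfrsf14, which encodes the lymphocyte receptor HVEM, had 10.1, 12.1 and 14.3 normalised counts in the SuHx libraries, against 23.5, 21.9 and 23.9 in the control libraries. All SuHx libraries were below all controls, at a log2 fold change of -0.89 ± 0.35 (SE, unadjusted p under 0.05, limma adjusted p = 0.263). The receptors of TNF itself overlapped between the groups. Tnfrsf1a, the widely expressed receptor with a death domain, had 354, 295 and 338 normalised counts in the SuHx libraries, against 243, 185 and 414 in the control libraries, a log2 fold change of 0.31. Tnfrsf1b, the second TNF receptor, had 64.9, 84.3 and 81.1 normalised counts in the SuHx libraries, against 65.1, 45.8 and 68.5 in the control libraries, a log2 fold change of 0.37. Neither passed limma (adjusted p = 0.624 for Tnfrsf1a and 0.466 for Tnfrsf1b). Control 3 was the highest control for 7 of the 8 TNF receptors, Tnfrsf12a included.

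Of the 8 genes with TNF in their names that are neither ligands nor signalling receptors, 7 had positive log2 fold changes as deposited. At the same total 6 of 8 did. The SuHx libraries were above all controls for 5 of the 8, where this held for 12.9% of all genes. None passed the adjusted threshold of limma, and 3 were higher at an unadjusted p under 0.05, where 9.61% of all genes were. No list test was run. Tnfaip2, a gene first found as induced by TNF in endothelium, had 131, 133 and 154 normalised counts in the SuHx libraries, against 89.8, 86.5 and 79.4 in the control libraries, a log2 fold change of 0.70 ± 0.16 (SE, limma adjusted p = 0.0821). The 3 libraries of each group lay close together. Tnfaip3 encodes A20, a ubiquitin-editing inhibitor of NF-kB. It had 78.1, 75.7 and 127 normalised counts in the SuHx libraries, against 74.0, 36.5 and 41.7 in the control libraries, so that SuHx B barely exceeded control 1, at a log2 fold change of 0.90 (limma adjusted p = 0.240). Tnfaip1, an adaptor of ubiquitin ligases, had 1157, 1125 and 1034 normalised counts in the SuHx libraries, against 803, 925 and 913 in the control libraries, a log2 fold change of 0.33 (limma adjusted p = 0.265) that was 0.01 when all libraries were brought to the same total. Tnfrsf11b encodes osteoprotegerin, the soluble decoy of RANK ligand and TRAIL. It had 27.0, 25.8 and 108 normalised counts in the SuHx libraries, against 18.0, 14.6 and 18.9 in the control libraries, and its log2 fold change of 1.27 (limma adjusted p = 0.303) was 0.60 without SuHx C. Tnfaip8l3, a lipid transfer protein gene, had 13.2, 9.47 and 19.1 normalised counts in the SuHx libraries, against 5.60, 6.25 and 8.95 in the control libraries, low values throughout, with a log2 fold change of 0.88 (limma adjusted p = 0.443).

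**Figure D2:**
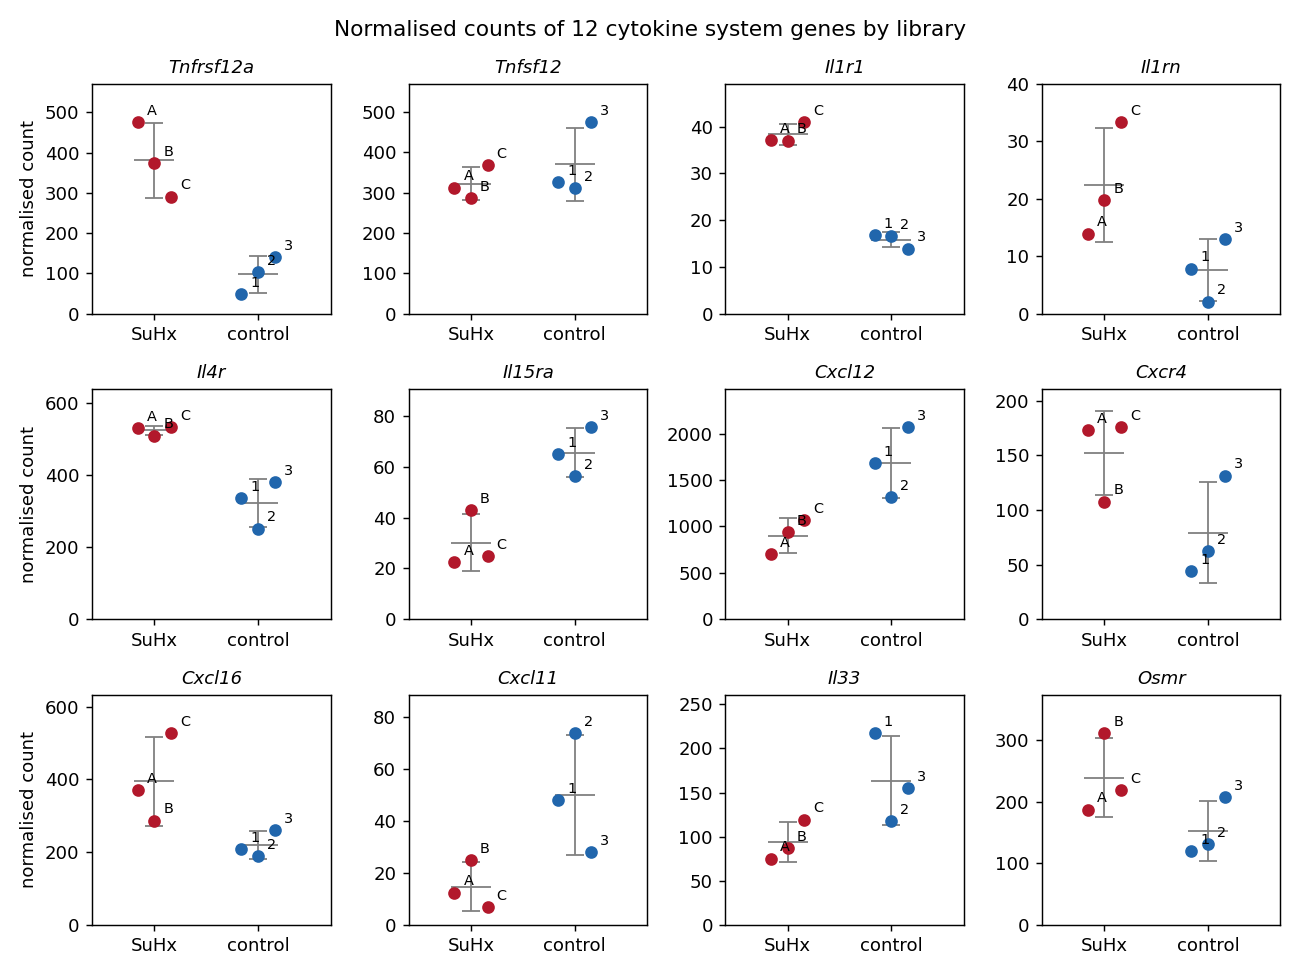
Normalised counts (vertical axis, from 0) of 12 genes in the SuHx libraries A to C and the control libraries 1 to 3, with the mean and SD of each group in grey. Tnfrsf12a and Il1r1 are higher in every SuHx library, Cxcl12, Il15ra and Cxcl11 are lower in every SuHx library, and Tnfsf12, Cxcr4, Il33 and Osmr overlap between the groups.

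The IL-1 system had its receptor and its antagonist on the same side. Il1r1, the signalling receptor of IL-1, had 37.1, 37.0 and 41.0 normalised counts in the SuHx libraries, against 16.8, 16.7 and 13.9 in the control libraries. The libraries of each group lay close together and all SuHx libraries were above all controls, at a log2 fold change of 1.23 ± 0.28 (SE, unadjusted p under 0.05, limma adjusted p = 0.0772). It did not pass here, although its adjusted p was 0.032 when limma was fitted with no mean-variance trend. Il1rn, which encodes the IL-1 receptor antagonist, had 13.9, 19.8 and 33.4 normalised counts in the SuHx libraries, against 7.85, 2.08 and 12.9 in the control libraries. Its SuHx libraries were above all controls by a narrow margin, 13.9 in SuHx A against 12.9 in control 3, with a log2 fold change of 1.60 (limma adjusted p = 0.289). Il1rap, the shared accessory receptor, was not among the genes chosen by rule, and overlapped at a log2 fold change of -0.37. Il33, an alarmin of the IL-1 family released by stromal cells, had 75.0, 86.9 and 119 normalised counts in the SuHx libraries, against 218, 118 and 155 in the control libraries. Only SuHx C, at 119, reached the range of the controls, whose lowest was control 2 at 118, and the log2 fold change was -0.78 (unadjusted p under 0.05, limma adjusted p = 0.222). Il18r1, which encodes the IL-18 receptor, had 6.95, 6.02 and 9.54 normalised counts in the SuHx libraries, against 13.5, 15.6 and 14.9 in the control libraries, with all SuHx libraries below all controls at a log2 fold change of -0.90 (limma adjusted p = 0.375). Il18bp, the soluble IL-18 binding protein, had 67.0, 67.5 and 58.2 normalised counts in the SuHx libraries, against 66.8, 83.3 and 89.1 in the control libraries, a log2 fold change of -0.30.

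Il4r encodes the shared receptor chain of IL-4 and IL-13, cytokines of alternative macrophage activation and fibrosis. It had 531, 509.8 and 532 normalised counts in the SuHx libraries, against 337, 251 and 380.1 in the control libraries. The 3 SuHx libraries lay close together and all were above the controls, of which control 3 was the highest. The mean was 524 ± 12.7 over the SuHx libraries and 323 ± 65.7 over the controls (SD, n = 3 each), which is a log2 fold change of 0.72 ± 0.18 (SE, limma adjusted p = 0.0981). Without control 3 the log2 fold change was 0.85 and the adjusted p 0.0375, which passes. No other fit with a single library left out passed, with an adjusted p from limma of up to 0.309. At the same total the log2 fold change of Il4r was 0.40 (limma adjusted p = 0.383). Il15ra presents IL-15 to lymphocytes. It had 22.4, 43.0 and 24.8 normalised counts in the SuHx libraries, against 65.0, 56.3 and 75.6 in the control libraries, so that all SuHx libraries were below all controls, with a log2 fold change of -1.15 ± 0.30 (SE, limma adjusted p = 0.112). Il3ra, a receptor chain for the myeloid growth factor IL-3, had 15.5, 9.48 and 4.77 normalised counts in the SuHx libraries, against 26.8, 17.7 and 24.9 in the control libraries, again with no overlap, at a log2 fold change of -1.25 (limma adjusted p = 0.270). Il10rb, a chain shared by the receptors of IL-10 and of the lambda interferons, had 189, 207 and 215 normalised counts in the SuHx libraries, against 249.8, 238 and 227 in the control libraries. The groups did not overlap, but the log2 fold change was only -0.23 (limma adjusted p = 0.455).

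Receptors of the gp130 cytokines were tested, while the ligands Il6, Lif and Osm fell under the filter. Il6st encodes gp130, the signal transducer shared by IL-6, LIF, oncostatin M and cardiotrophin 1. It had 1121, 1310.4 and 1367 normalised counts in the SuHx libraries, against 996, 992 and 620.5 in the control libraries. Every control, of which control 3 was the lowest, was below the SuHx libraries, and the log2 fold change was 0.57 ± 0.21 (SE, limma adjusted p = 0.242). Without control 3 it was 0.34. Osmr, the chain that joins gp130 in the oncostatin M receptor, had 187, 311 and 218 normalised counts in the SuHx libraries, against 119, 130.2 and 208 in the control libraries, where only SuHx A lay within the controls. Its log2 fold change was 0.66 (unadjusted p under 0.05, limma adjusted p = 0.284). Il11ra1, the IL-11 receptor of fibroblasts and muscle, had 476, 337 and 397 normalised counts in the SuHx libraries, against 464, 434 and 449 in the control libraries, overlapping at a log2 fold change of -0.17. The ligands Il6, Lif and Osm were all under 10 normalised counts in every library. Il6 had 2.33, 1.72 and 0.952 in the SuHx libraries, against 0, 0 and 2 in the control libraries.

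The interleukin ligands with the highest means after Il33 showed no separation. Il16, a chemoattractant of CD4 cells, had 71.0, 91.9 and 109.7 normalised counts in the SuHx libraries, against 94.4, 66.7 and 100.2 in the control libraries, a log2 fold change of 0.06. Il34, a ligand of the CSF-1 receptor that keeps tissue macrophages, had 48.8, 43.1 and 65.8 normalised counts in the SuHx libraries, against 35.8, 44.8 and 39.8 in the control libraries, a log2 fold change of 0.36. Their adjusted p-values from limma were 0.920 for Il16 and 0.499 for Il34, and the lowest among the 7 interleukin ligands was 0.222.

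Cxcl12, a chemokine of stromal and endothelial cells that retains CXCR4-bearing cells, was the ligand with the lowest p. It had 699, 939 and 1064 normalised counts in the SuHx libraries, against 1681, 1312 and 2065 in the control libraries. The SuHx libraries were all below the controls, with SuHx A lowest and control 3 highest. The mean was 901 ± 186 over the SuHx libraries and 1686 ± 377 over the controls (SD, n = 3 each), which is a log2 fold change of -0.90 ± 0.22 (SE, limma adjusted p = 0.0981). This did not pass. Its receptor Cxcr4 had 173, 108 and 175 normalised counts in the SuHx libraries, against 43.7, 62.5 and 131 in the control libraries, where control 3 lay above SuHx B. The log2 fold change of Cxcr4 was 1.05 ± 0.41 (SE, limma adjusted p = 0.257). Without control 3 it was 1.49 with an adjusted p of 0.0427, which passes. No other fit with a single library left out passed, with an adjusted p from limma of up to 0.545. At the same total the log2 fold change of Cxcr4 was 0.73 (limma adjusted p = 0.333). Cxcr7, the former name of Ackr3, encodes a scavenging receptor of the same ligand. It had 891, 971 and 991 normalised counts in the SuHx libraries, against 958, 741 and 969.8 in the control libraries, a log2 fold change of 0.11 (limma adjusted p = 0.765).

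Of the other chemokines, Cxcl16, a transmembrane chemokine and scavenger of oxidised lipoproteins, had 370.3, 286 and 527 normalised counts in the SuHx libraries, against 208, 188 and 261 in the control libraries. All SuHx libraries were above all controls, at a log2 fold change of 0.82 ± 0.25 (SE, limma adjusted p = 0.156). Cxcl11, a chemokine induced by interferon, had 12.4, 25.0 and 6.68 normalised counts in the SuHx libraries, against 48.1, 74.0 and 27.9 in the control libraries. Again all SuHx libraries were below all controls, and its log2 fold change of -1.77 ± 0.55 (SE, limma adjusted p = 0.159) was the most negative among the 73. Cxcl9 and Cxcl10, which share its receptor CXCR3, had log2 fold changes of 0.25 and 0.45 with overlapping groups, and were not chosen by rule. Cx3cl1, the membrane-bound chemokine fractalkine, had 562, 371 and 415 normalised counts in the SuHx libraries, against 486, 309 and 314 in the control libraries, which overlapped at a log2 fold change of 0.29. Its receptor Cx3cr1, a marker of monocytes and resident macrophages, had 20.2, 14.7 and 16.2 normalised counts in the SuHx libraries, against 7.82, 4.17 and 8.98 in the control libraries. Its SuHx libraries were above all controls, at a log2 fold change of 1.22 (unadjusted p under 0.05, limma adjusted p = 0.275). Ccr1, a receptor of myeloid cells, had 9.29, 25.0 and 9.54 normalised counts in the SuHx libraries, against 45.9, 16.7 and 23.9 in the control libraries, with a log2 fold change of -0.96 (limma adjusted p = 0.419).

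The interferon receptors were 5, all tested, and 0 passed limma, and an unadjusted p under 0.05 was reached by 1 that was higher and 1 that was lower. Ifngr2, the signalling chain for interferon gamma, had 313, 255 and 247 normalised counts in the SuHx libraries, against 185, 194 and 155 in the control libraries, all SuHx libraries above all controls, at a log2 fold change of 0.61 ± 0.17 (SE, limma adjusted p = 0.126). Ifnar2, a chain of the type I interferon receptor, had 148, 108 and 131 normalised counts in the SuHx libraries, against 184, 158 and 259.7 in the control libraries, all SuHx libraries below all controls, at a log2 fold change of -0.62 ± 0.23 (SE, limma adjusted p = 0.240). Their partner chains overlapped. Ifngr1 had 629, 845 and 756 normalised counts in the SuHx libraries, against 659, 724 and 1169 in the control libraries, and Ifnar1 had 384, 366 and 426 normalised counts in the SuHx libraries, against 402, 445 and 419.7 in the control libraries. The log2 fold changes were -0.16 for Ifngr1 and -0.11 for Ifnar1.

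Known ligands and receptors were then set side by side. Of 44 such pairs among the members, 15 had both partners tested. Both log2 fold changes were positive in 2 pairs and both negative in 5, the ligand was negative and the receptor positive in 6, and the ligand positive and the receptor negative in 2. The tally depended on the scaling, and at the same total it was 1, 8, 4 and 2 pairs in the same order. The pair with a called partner was Tnfsf12 at -0.18 and Tnfrsf12a at 2.06. Cxcl12 and Cxcr4 stood at -0.90 and 1.05, and Il15 and Il15ra at -1.13 and -1.15. Il18 and Il18r1 stood at 0.79 and -0.90, and Cx3cl1 and Cx3cr1 at 0.29 and 1.22. Pairs share ligands and receptors, and Il15 and Il18 were named after their values were seen.

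The comparison was repeated without control 3. Of the members, 71 were then tested, since Ccl24 and Il15 no longer reached a mean of 10. At an adjusted p under 0.05 from limma 3 were higher, Tnfrsf12a, Il4r and Cxcr4, and 0 were lower, where 2.48% of all 10707 genes were higher and 1.27% were lower, 3.75% in all. An unadjusted p under 0.05 was reached by 18, of which 14 were higher and 4 were lower, where the shares over all genes were 11.0% higher, 8.71% lower and 19.7% in all. The 3 called genes are all receptors. Of the 24 ligands left, 0 passed limma, an unadjusted p under 0.05 was reached by 1 higher and 3 lower, and their median log2 fold change was -0.04. The median of the 37 receptors was 0.10, and an unadjusted p under 0.05 was reached by 10 higher and 1 lower.

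Control 3 had the highest value of the 3 controls for 40 of the 73 members, 54.8%, where it was the highest for 39.1% of all genes tested. Among chemokine ligands it was the highest for 11 of 15, and its median lay 0.81 log2 units above the other controls. Among all ligands the median was 0.53 above and among receptors 0.20. Control 2 was the lowest control for 39 of the 73, 53.4%, where it was the lowest for 29.2% of all genes. Inflammatory ligands, named after their values were seen, show the spread. Il1b, an inflammasome-dependent cytokine, had 6.21, 22.4 and 17.2 normalised counts in the SuHx libraries, against 5.59, 3.13 and 38.9 in the control libraries. Ccl2, the monocyte chemoattractant, had 58.6, 33.8 and 58.2 normalised counts in the SuHx libraries, against 44.5, 6.25 and 72.2 in the control libraries, and Cxcl1, a neutrophil chemoattractant, had 6.24, 23.4 and 7.63 normalised counts in the SuHx libraries, against 26.7, 6.25 and 82.1 in the control libraries. For Il1b and Ccl2 the controls alone covered the SuHx range, and for Cxcl1 the groups overlapped. The 8 immediate early genes listed as a sign of acute stimulation summed to 2029 to 3484 normalised counts in SuHx, against 4274 in control 1, 2616 in control 2 and 22886 in control 3, and control 3 was the highest control for 8 of 8. Their part in the cytokine values of control 3 was not tested.

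**Figure D3:**
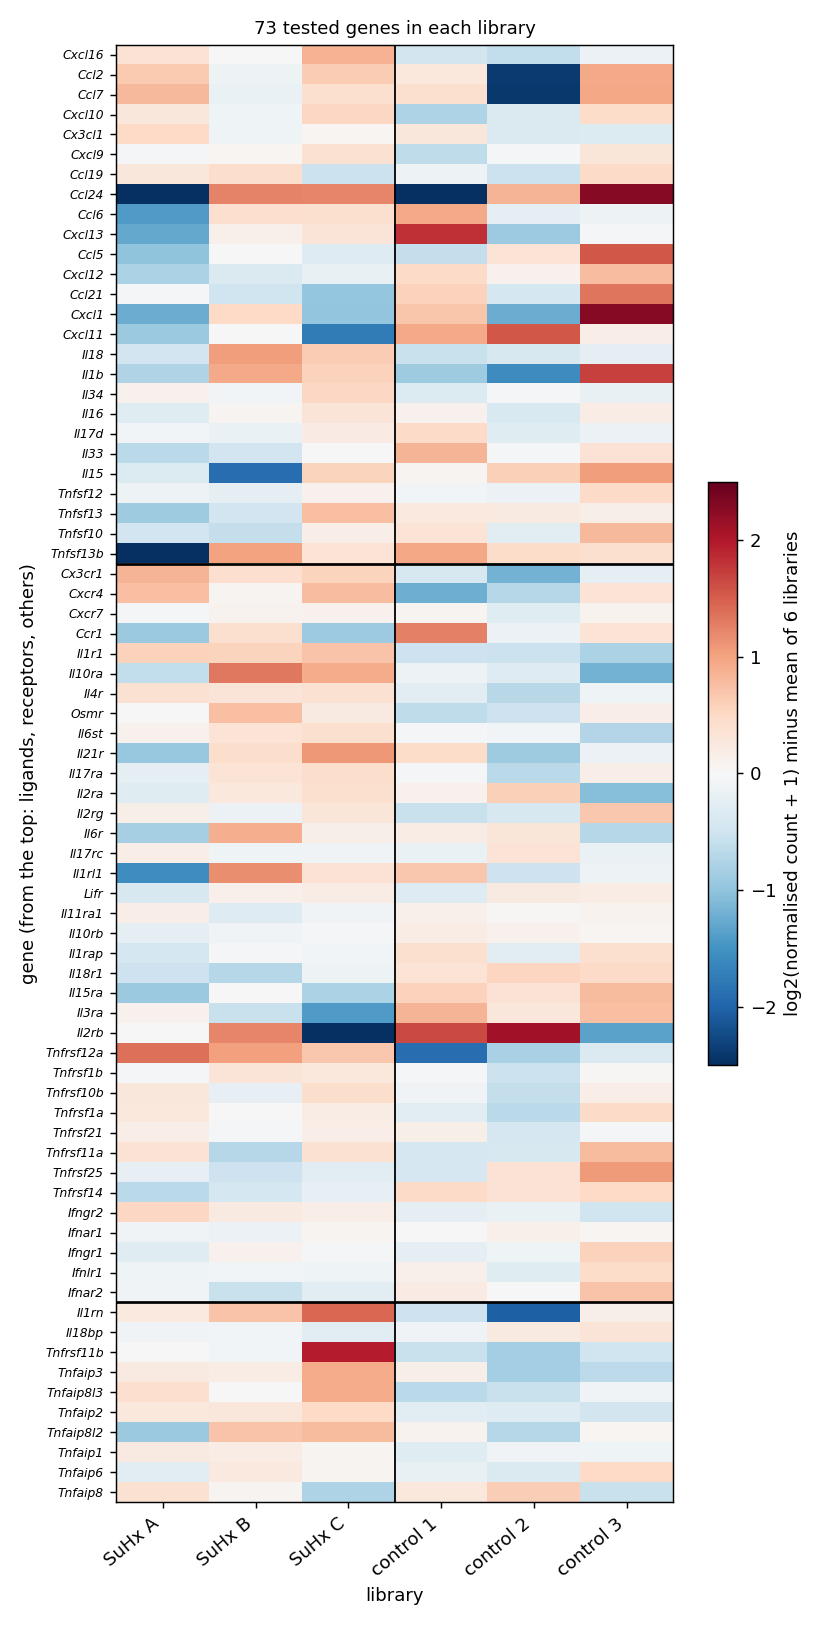
The 73 tested genes (rows, ligands then receptors then others) in each library (columns, SuHx A to C left of controls 1 to 3), coloured, on a capped scale, by log2(normalised count + 1) minus the mean of the gene over the 6 libraries. Control 3 is the highest control in 40 rows and control 2 the lowest in 39, and the groups overlap for 23 of the 26 ligands.

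Among the SuHx libraries, SuHx C was the highest for 36 of the 73 members, 49.3%, where it was the highest for 30.8% of all genes. SuHx A was the lowest for 34, 46.6%, where it was the lowest for 34.01% of all genes. Macrophage markers also differed between the SuHx libraries. The 10 tested of 11 listed summed to 1233, 3394 and 3161 normalised counts in the SuHx libraries, against 1886, 1178 and 1244 in the control libraries, and SuHx A was the lowest SuHx library for 10 of 10. None of them passed limma, an unadjusted p under 0.05 was reached by 2, both higher, and Adgre1 was not used here. Il10ra, the IL-10 receptor of leukocytes, was named after its values were seen for a like order of the SuHx libraries, with 10.8, 43.9 and 33.4 normalised counts in the SuHx libraries, against 15.7, 13.5 and 6.96 in the control libraries. Il18 and Il21r also had SuHx A as their lowest SuHx library, at 11.7 and 6.96 normalised counts, and were likewise named after their values were seen. Cx3cr1, itself a marker of monocytes and resident macrophages, had the other order, with SuHx A as its highest SuHx library at 20.2 normalised counts. T and NK cell markers summed to 133 to 337 in SuHx and 197 to 303 in control. Cd4, the largest of them, had 62.7, 273 and 245 normalised counts in the SuHx libraries, against 171, 113 and 62.7 in the control libraries. In the SuHx libraries the sum followed Cd4, in the same order as the macrophage sum, so it does not show the other T and NK markers. Of the 5 T and NK markers tested, 2 were lower at an unadjusted p under 0.05 from limma, Cd2 and Prf1. In both, all SuHx libraries were below all controls, which held for 11.6% of all genes. Log2 fold changes were -1.21 for Cd2, -1.05 for Prf1, -0.77 for Nkg7, 0.06 for Cd8a and 0.60 for Cd4. Monocyte and neutrophil markers summed to 38.8 to 127 in SuHx and 51.0 to 58.2 in control, B cell markers to 0 to 7.75 in SuHx and 4.17 to 10.96 in control, and mast cell markers to 43.9 to 161 in SuHx and 91.7 to 183 in control. Endothelial markers summed to 4136 to 5213 in SuHx and 3878 to 5715 in control. These sums rest on 8 of 9 listed markers for T and NK cells and 4 of 7 for monocytes and neutrophils. They rest on 3 of 4 for B cells, of which 0 were tested, 4 of 5 for mast cells and 4 of 5 for endothelium. No marker that entered the sums was at 0 in all libraries, and the part of leukocyte number in the cytokine values was not tested.

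**Figure D4:**
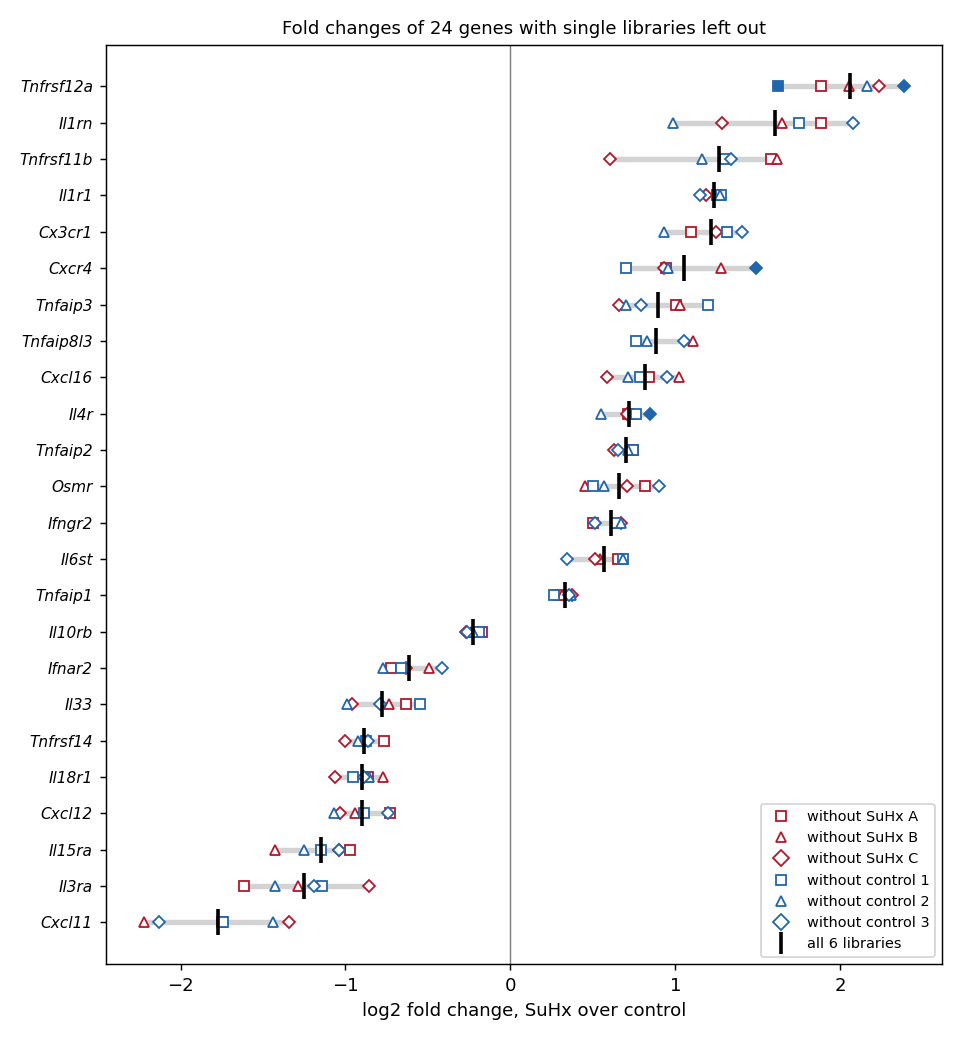
Log2 fold change of SuHx over control (horizontal axis) for the 24 tested genes with an unadjusted p under 0.05 or no overlap between groups, with all 6 libraries (black bar) and with each library left out (symbols, filled where the adjusted p from limma was under 0.05). Tnfrsf12a is filled without control 1 and without control 3, and Il4r and Cxcr4 are filled without control 3. None of the 24 genes changed sign. Where the groups do not overlap, leaving out a single library cannot change the sign, and among the 24 only Cxcr4, Il33 and Osmr overlap.

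The result also changed with the scaling. With every library brought to 1 common total, all genes had a median log2 fold change of -0.31, against 0.01 as deposited, and the members one of -0.26, against 0.06. Calls over all genes were then 0.839% higher and 1.78% lower. Among the members Tnfrsf12a still passed at a log2 fold change of 1.74 (limma adjusted p = 0.037), and Cxcl12 at -1.22 (limma adjusted p = 0.048) and Il15ra at -1.46 (limma adjusted p = 0.043) passed as lower. Positive members were then 27 and negative 46, where they were 39 and 34 as deposited. The sign changed for 12 tested members, of which 0 had an unadjusted p under 0.05 as deposited. Among them were Cx3cl1 at -0.03, Cxcl9 at -0.06, Cxcr7 at -0.21, Il16 at -0.26 and Tnfrsf1a at -0.01 on the common total. Of the members higher at an unadjusted p under 0.05 as deposited, Tnfrsf12a and Il1r1 stayed under 0.05 in limma on the common total. Cx3cr1, Cxcl16, Cxcr4, Ifngr2, Il1rn, Il4r, Il6st, Osmr, Tnfaip1, Tnfaip2 and Tnfaip3 did not. The members lower at an unadjusted p under 0.05 as deposited all stayed under it. With each library left out in turn, the sign changed at least once for 24 of the 73 tested members.

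Genes of cytokine systems whose names do not follow the rule were listed beside the members. Of 38 listed, 28 were in the table and 25 were tested, and limma called 2 as higher and 0 as lower, where the shares over all genes were 1.55% higher and 0.671% lower. Ackr2, among those called, is a decoy receptor that degrades inflammatory CC chemokines and had 44.2, 62.1 and 76.3 normalised counts in the SuHx libraries, against 21.2, 15.6 and 16.0 in the control libraries, a log2 fold change of 1.71 ± 0.30 (SE, limma adjusted p = 0.0379). It passed without control 3, but not with any other single library left out, nor at the same total (limma adjusted p = 0.093). Ctf1, which encodes cardiotrophin 1, a gp130 cytokine of muscle, had 27.9, 25.0 and 14.3 normalised counts in the SuHx libraries, against 60.4, 49.0 and 53.8 in the control libraries, all SuHx libraries below all controls at a log2 fold change of -1.29 (limma adjusted p = 0.0949). Cntfr, a receptor chain for ciliary neurotrophic factor, had 12.4, 29.3 and 3.81 normalised counts in the SuHx libraries, against 90.7, 34.4 and 78.6 in the control libraries, a log2 fold change of -2.35 (limma adjusted p = 0.146). At the same total, where 1.78% of all genes were called lower, both passed as lower (limma adjusted p = 0.043 for Ctf1 and 0.044 for Cntfr). Csf1, the growth factor of macrophages, had 374, 392 and 485 normalised counts in the SuHx libraries, against 336, 176 and 235 in the control libraries, a log2 fold change of 0.78 (limma adjusted p = 0.172). Ccrl2, a receptor that presents chemerin, had a log2 fold change of 0.56 (limma adjusted p = 0.201). The genes given from this list were named after their values were seen, from those with an unadjusted p under 0.05.

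Of 70 genes of the JAK-STAT, NF-kB, TRAF and inflammasome routes listed, 59 were tested and 0 passed limma in either direction, with an unadjusted p under 0.05 for 7, of which 5 were higher and 2 lower, where the shares over all genes were 9.61% higher and 7.59% lower, 17.2% in all. Their median log2 fold change was -0.0048. Stat3, the transcription factor used by gp130, had 1959, 2492 and 2434 normalised counts in the SuHx libraries, against 1589.6, 1398 and 1060.4 in the control libraries. Every SuHx library was above the controls, at a log2 fold change of 0.78 ± 0.19 (SE, limma adjusted p = 0.0953). Its feedback inhibitor Socs3 had 49.2, 29.4 and 37.2 normalised counts in the SuHx libraries, against 26.7, 13.5 and 184 in the control libraries, where control 3 stood far above the other libraries. Its log2 fold change was -0.12 (limma adjusted p = 0.957), which turned to 0.95 without control 3 (limma adjusted p = 0.261). Nfkbia, which encodes the NF-kB inhibitor alpha, had 1040.2, 1172 and 918 normalised counts in the SuHx libraries, against 844, 1029 and 1488 in the control libraries, a log2 fold change of -0.07 (limma adjusted p = 0.905) that turned to 0.16 without control 3. Control 3 was the highest library for both inhibitors. Without control 3, the kinase gene Ikbkb and the phosphatase gene Ptpn11 passed as higher at log2 fold changes of 0.84 and 0.54, and Stat5a passed as lower at -0.86. These 3 were named after their values were seen.

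The 47 members that were not tested comprised 18 ligands, 25 receptors and 4 others, with means of 0.588 to 9.46 normalised counts. Of these, 18 reached 10 in at least 1 library and 29 did not. The ligands that did were Ccl3, with 29.2 in control 3 as the highest single value, Ccl22, Ccl27, Cxcl2, Cxcl14, Xcl1, Il23a, Tnfsf9 and Tnfsf18. The receptors were Cxcr3, Cxcr5, Il9r, Il17rd, Il17re and Tnfrsf19, and the others Il1r2, Il22ra2 and Tnfaip8l1. Tnfsf18, which encodes the T cell costimulator GITR ligand, had 10.1, 9.47 and 15.3 normalised counts in the SuHx libraries, against 4.48, 1.04 and 1.99 in the control libraries. Il17rd, a receptor that also restrains fibroblast growth factor signalling, had 9.28, 12.05 and 9.54 normalised counts in the SuHx libraries, against 2.24, 2.08 and 6.96 in the control libraries. In both, all SuHx libraries were above all controls. For 5 untested members, among them Ccr8, Il9r and Il1a, all SuHx libraries were below all controls. Il9r had 0, 2.58 and 2.86 normalised counts in the SuHx libraries, against 10.1, 5.21 and 11.9 in the control libraries. Il1a was listed at 0 in every SuHx library, against 1.61, 0.753 and 1.94 in the control libraries. Listed values of 0 occurred in at least 1 library for 24 of the 47, and also for 3 of the tested members. An exact 0 can be a failed estimate in such a table. No test was run at these levels.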

How the data were processed

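RNA of RV tissue of SuHx and control rats was extracted with an RNeasy kit and made into TruSeq libraries, 3 in each group. The authors counted reads per gene with Salmon (version 0.14.1), named with the build GRCm38.p6, and deposited a normalised signal, which is the count normalised with DESeq2 (version 1.24.0) for each library without pooling. That build is of the mouse, while the gene names include rat names, so the index is unsettled and levels are not compared between genes. Whether counting used strand is not given in the sources used here, and reads of overlapping or antisense genes may be shared. The values are not whole, so no count model was run and no counting interval is given. A row with no gene name (0.00143% to 0.00514% of a library) was left out.

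Values were compared as log2(normalised count + 1) for genes with a mean of at least 10, with limma 3.58.1 in R 4.3.3 (mean-variance trend, two-sided, Benjamini-Hochberg over all 10725 genes, calls at an adjusted p under 0.05). An exact permutation test over the 6 libraries was added for single genes. The limma fit was also run on simulated whole counts, with the same dispersion for all genes and no differences between libraries. That setting is simpler than these values, so it cannot show how differences between libraries affect the calls. Roles, pairs and lists were written by hand, and members and lists were chosen with earlier results of these data known. The members named are those with an adjusted or unadjusted p under 0.05 or with groups that do not overlap, the 3 of highest mean in each role of each family, the partners of called members, and untested ones with at least 10 in 1 library. Signalling genes are named where called, with Socs3, Nfkbia and Stat3. Alternatives covered pseudocounts, filters, scaling, moderation and left-out libraries. Promoters came from RefSeq (GRCr8), and figures from matplotlib 3.10.9. Some genes that entered these counts are not reported here by name.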

Additional observations from a re-analysis of the deposited data

How the results depend on the processing

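With other pseudocounts, a mean of at least 50, TMM scaling, robust moderation or no mean-variance trend, 1 member was higher and 0 were lower, as in the report. With no mean-variance trend that member was Il1r1 (adjusted p = 0.032 from limma), while Tnfrsf12a did not pass (adjusted p = 0.090). Without a filter on low values 0 members, and so 0 receptors, were higher, and Tnfrsf12a had an adjusted p of 0.051. With single libraries left out, 0 to 3 members were higher, all of them receptors, and 0 were lower, with 3 reached without control 3. Without controls 1 and 3 together, 0 members and 0 receptors were higher. At the same total, 2 members were lower, 1 ligand and 1 receptor. Signalling genes numbered 0 to 2 higher and 0 to 1 lower with single libraries left out, the upper values without control 3. Related genes named otherwise, 2 higher in the report, numbered 1 at a mean of at least 50, 1 at the same total with 2 lower, 1 without controls 1 and 3 together, and 1 to 2 with single libraries left out. The causes were not tested, except that fewer samples enter the fits with libraries left out. In those fits the filter was applied again to the remaining libraries. No paired analysis was possible because the SuHx columns are not tied to numbered rats. The methods state a planned read depth for all samples, but the reads counted in each library cannot be taken from the normalised values, so what depth limits was not computed.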
